A study of Homo sapiens with 8 samples.

Results

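The 44 genes described here encode proteins that copy DNA in S phase, supply its building blocks or set the time at which copying starts. They were chosen by symbol, from the helicase subunit gene MCM2 to the uracil glycosylase gene UNG, and every probe set that the platform annotation pairs with 1 of these symbols was taken. All 44 were measured, by 65 of the 22215 probe sets tested, out of 11963 genes in all. A single probe set stood for 28 of them and several for 16, and where several exist the brightest, by mean log2 over the 8 arrays, represents the gene. The arrays measured RNA of 2 established human leukaemia cell lines grown in the same serum-supplemented medium, THP-1, labelled monocytic leukaemia, and HL-60, labelled promyelocytic leukaemia. THP-1 cells with 100 µM diclofenac, HL-60 cells with 100 µM diclofenac, THP-1 cells with DMSO and HL-60 cells with DMSO formed 4 groups of 2 arrays, all taken after 48 h. Diclofenac blocks the cyclooxygenases and is used against pain and inflammation, and DMSO was the control treatment. The titles call the 2 arrays of a group biological replicates without naming separate cultures, so p-values measure the spread between these arrays, which may be technical.

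Replication starts when the origin recognition complex, CDC6 and CDT1 load the ring-shaped MCM helicase onto DNA, a step called licensing. In S phase the kinase CDC7 and cyclin E with its kinase partner help to turn the loaded rings into working helicases with CDC45 and the GINS complex, and the polymerases, the sliding clamp PCNA and the single-strand binder RPA follow. Many of these genes are transcribed late in G1 under the control of E2F transcription factors, so their RNA is high in dividing cells and low in resting or mature myeloid cells.

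Intensities are the deposited linear values, and changes are differences of log2(value + 50) after quantile normalization, with the moderated standard error of limma after the ± sign. A gene passed the test where its limma p-value, adjusted by Benjamini-Hochberg over all 22215 probe sets, was under 0.05. The second THP-1 DMSO array stood apart: its median intensity was 241.2, against 109.6 to 150.3 on the other arrays, and 50.3% of its probe sets lay above background, against 66.4% to 72.1%. It correlated with the first THP-1 DMSO array at 0.898 over all probe sets, whereas the replicates of the other groups correlated at 0.977 to 0.984. Over the members alone that correlation was 0.933, against 0.989 to 0.992. The background limit of an array was set at the 95th percentile of its 27 control probe sets of bacterial origin. All 44 members lay above their limit on the other 7 arrays and 40 on this one, where CHAF1B, POLA1, POLA2 and POLE did not. Summed intensities of T cell, B cell, erythroid, megakaryocyte and fibroblast marker genes were also highest on it, at 1228.8 for the 4 T cell genes against 111.4 to 310.6 elsewhere. The sums make no allowance for its background limit of 238.63, against 33.23 to 60.2 elsewhere, and the T cell gene CD3D, at 184.6, lay below that limit. The part of these markers in the results was not tested. Of the 7 granulocyte precursor genes, ELANE, PRTN3, AZU1, CTSG, MS4A3 and CEBPE lay above background on every HL-60 array, and MPO on the HL-60 diclofenac but not the HL-60 DMSO arrays. The summed intensity of the 7 was 40746.5 to 57391.1 on THP-1 arrays, against 30209.9 to 35852.9 on HL-60 arrays, so these genes did not set HL-60 apart. Of the 7 monocyte genes measured, CD14 lay above background on both THP-1 diclofenac arrays, 1 THP-1 DMSO array and no HL-60 array. FCN1 went the other way, above background on every HL-60 array and on 1 array of each THP-1 group. LYZ, CSF1R, ITGAM and VCAN lay above it on every array. CD163 did so on both diclofenac arrays of each line, 1 HL-60 DMSO array and no THP-1 DMSO array.

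Promoter sequences of RefSeq (GRCh38.p14, 250 bases before to 50 after a transcript start) were at hand for 38 members. MCM5, MCM4, RPA3, POLD3, RPA2 and CCNE2 were not among them. At least 1 of the E2F motif spellings TTTCCCGC, TTTCGCGC, TTTGCCGC and TTTGGCGC, on either strand, lay in a window of 20 of these 38 members (52.6%), against 3.99% of the 27305 genes in the table. Counted by window, 40.8% of the 49 member windows held it, against 3.31% of all 35116 windows of this length, and a CCAAT box, the letters CCAAT on either strand, lay in 61.2% against 34.6%. Matches may overlap: the TTTCGCGC of MCM2 overlaps its own reverse complement, and each TTTGGCGC of MCM6 overlaps the reverse complement of TTTCGCGC. A match describes letters, not bound protein. The stretches from 170 bases before to 30 after the start are shown for a pair of genes that passed as higher in THP-1 than in HL-60 under DMSO after quantile normalization, MCM2 and CDC6, and a pair that passed as lower, MCM6 and GINS1, with the E2F motif letters in capitals. They lie on chr3:127598241-127598440, plus strand, for MCM2, chr17:40287709-40287908, plus strand, for CDC6, chr2:135876414-135876613, minus strand, for MCM6 and chr20:25407503-25407702, plus strand, for GINS1.
MCM2: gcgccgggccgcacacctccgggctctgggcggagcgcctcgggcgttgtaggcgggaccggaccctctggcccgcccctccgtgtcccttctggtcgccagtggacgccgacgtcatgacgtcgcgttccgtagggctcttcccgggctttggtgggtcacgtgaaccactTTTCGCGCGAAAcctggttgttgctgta
CDC6: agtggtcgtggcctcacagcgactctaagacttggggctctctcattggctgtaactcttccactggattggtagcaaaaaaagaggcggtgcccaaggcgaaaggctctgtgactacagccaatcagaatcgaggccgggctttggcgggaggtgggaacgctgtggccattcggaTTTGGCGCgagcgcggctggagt
MCM6: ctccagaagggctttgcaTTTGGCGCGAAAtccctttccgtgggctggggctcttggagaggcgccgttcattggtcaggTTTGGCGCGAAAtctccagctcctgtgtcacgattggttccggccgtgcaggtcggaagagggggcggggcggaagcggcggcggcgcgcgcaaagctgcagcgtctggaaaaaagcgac
GINS1: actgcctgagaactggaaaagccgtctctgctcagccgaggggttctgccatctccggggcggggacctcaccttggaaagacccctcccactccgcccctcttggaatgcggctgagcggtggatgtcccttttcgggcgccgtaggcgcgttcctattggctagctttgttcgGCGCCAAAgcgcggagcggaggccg
The genes shown all hold the motif, so its presence in both pairs says nothing about direction. Of the other members that passed under DMSO and have a window, PCNA and POLA1, both lower, held it. PRIM1, MCM10, TK1, RFC5 and CCNE1, which were higher, and RRM2, RRM1 and RFC1, which were lower, did not.

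In THP-1 cells none of the 44 members passed the test after 48 h of diclofenac, although most had lower values than with DMSO. The lowest p-values belonged to RRM2, the small subunit of ribonucleotide reductase, at -0.48 ± 0.08, the GINS subunit gene GINS1 at -0.64 ± 0.11 and the cyclin E gene CCNE1 at -0.83 ± 0.19. Their adjusted p-values by limma were 0.0802, 0.108 and 0.198. Of all 11963 genes 0.184% passed, 0.176% higher and 0.00836% lower. At an unadjusted limma p under 0.05, 12 members were lower and 1 was higher, against 5.62% and 6.26% of all genes, and against 9.41% and 11.7% of the 2104 genes of similar brightness, whose mean log2 value lay between the members' lower and upper quartile. The median member change was -0.22, with 32 of 44 below 0 (51.6% of all genes were), while the median of all genes was -0.01 and that of the genes of similar brightness 0.01. Diclofenac and DMSO arrays did not overlap for 24 members that were lower and 3 that were higher, against 21.3% and 19.3% of all genes. Before quantile normalization these were 14 and 4 members, against 20.6% and 14.6%. A lower level in such a bulk sample may come from fewer cells in S phase or from less RNA per cell, which cannot be told apart.

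The sign of this median depended on how the arrays were scaled. On the deposited scale it was -0.08, with 26 of 44 members below 0, and the median of all genes was -0.15. There 0 members passed, against 0.251% of all genes higher and 0% lower. Median centring, which subtracts each array's median, gave 0.28 for the members with 38 above 0, and 0.20 for all genes. Relative to the median of all genes the members stood at -0.20 after quantile normalization, 0.07 on the deposited scale and 0.07 after median centring. Relative to the genes of similar brightness they stood at -0.23, -0.15 and -0.15, each below 0. Against either reference the values for the deposited scale and median centring are equal by construction, as centring shifts all genes of an array alike. Without the second THP-1 DMSO array the members' median was -0.20 after quantile normalization, -0.23 on the deposited scale and -0.31 after median centring, with 35, 36 and 40 of 44 below 0, and 0 passed under any of these, where after quantile normalization 0.301% of all genes were higher and 0.0167% lower. The medians of all genes were then -0.01, 0.02 and -0.06, and those of the genes of similar brightness -0.03, -0.03 and -0.11. Without the first THP-1 DMSO array, which leaves only the array that stood apart, 17 members passed, 5 of them higher and 12 lower, together with 6898 probe sets (31.1%). With the dimmest 40% of probe sets left out, RRM2 passed as lower.

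**Figure D1:**
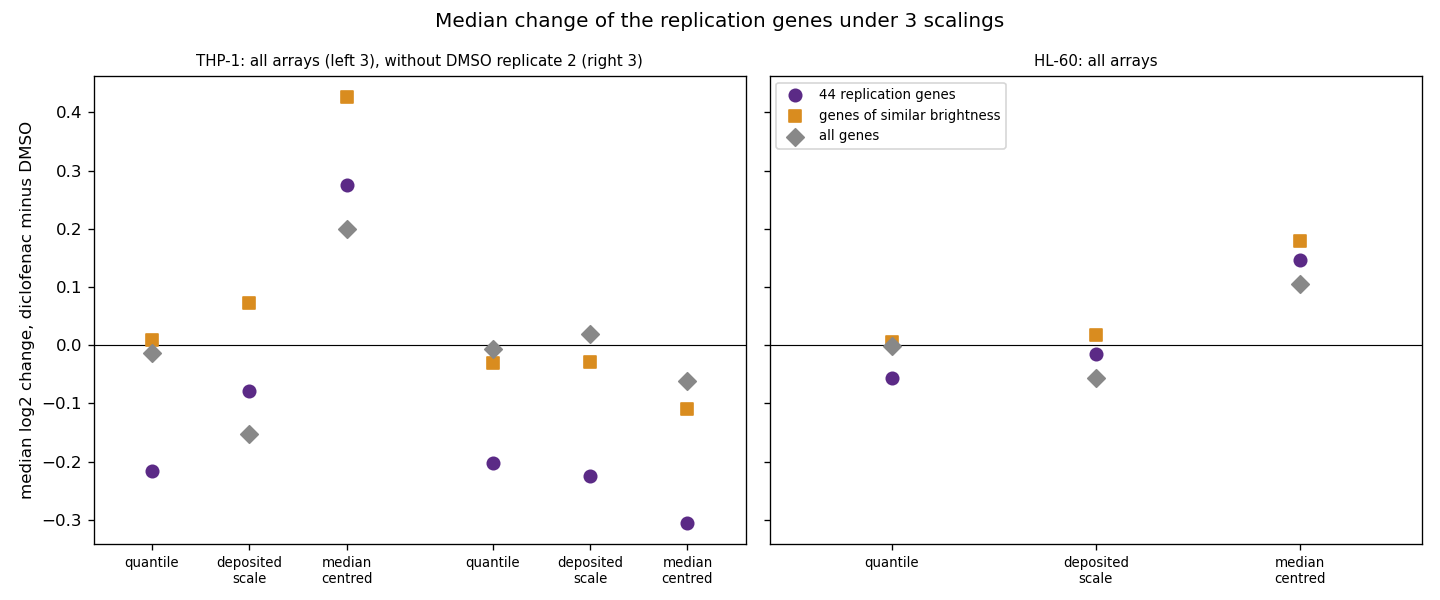
Median log2 change (diclofenac minus DMSO) of the 44 members, of the 2104 genes of similar brightness and of all 11963 genes under 3 scalings, for THP-1 (left panel, all arrays and then without the second DMSO array) and HL-60 (right panel). With all THP-1 arrays the members' median is below 0 after quantile normalization (-0.22) and on the deposited scale (-0.08) and above 0 after median centring (0.28), and without that array it is below 0 under all 3.

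In HL-60 cells none of the 44 members passed either, and changes went both ways. The helicase gene MCM4 at -0.38 ± 0.10 and the DNA ligase gene LIG1 at -0.57 ± 0.19 had lower values with diclofenac, and the clamp loader gene RFC5 at 0.40 ± 0.13 and the primase gene PRIM1 at 0.29 ± 0.12 higher ones. These were the only 4 members with an unadjusted limma p under 0.05, against 2.44% of all genes higher and 2.13% lower. Of the genes of similar brightness 5.23% were higher and 3.66% lower at that threshold. The lowest adjusted p by limma was 0.700, for MCM4. Of all genes 0.00836% passed, all higher, and 0% lower. The median member change was -0.06, with 18 above and 26 below 0, where 49.8% and 50.2% of all genes lay, and it was -0.01 on the deposited scale, with 22 on each side. Median centring gave 0.15, where the median of all genes was 0.10. Arrays did not overlap for 10 members that were higher and 14 that were lower, against 20.6% and 19.7% of all genes. Before quantile normalization these were 10 and 10, against 15.7% and 25.2%.

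The change in THP-1 minus the change in HL-60 passed for 0 of 44 members and 0% of all genes. At an unadjusted limma p under 0.05, 10 members were lower and 2 higher, against 3.42% and 3.98% of all genes. Of the genes of similar brightness 6.23% were lower and 7.32% higher. The smallest p belonged again to RRM2, with a difference of -0.60 ± 0.11 and a limma adjusted p of 0.303. GINS1 at -0.73 ± 0.16, RFC5 at -0.70 ± 0.18, CCNE1 at -0.99 ± 0.26 and PRIM1 at -0.58 ± 0.17 lay on the same side and PCNA at 0.80 ± 0.23 on the other. The median over members was -0.13, against -0.01 over all genes, and was 0.15 under median centring. Without the first THP-1 DMSO array 12 members passed, 5 of them higher and 7 lower, together with 18.2% of all probe sets.

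**Figure D2:**
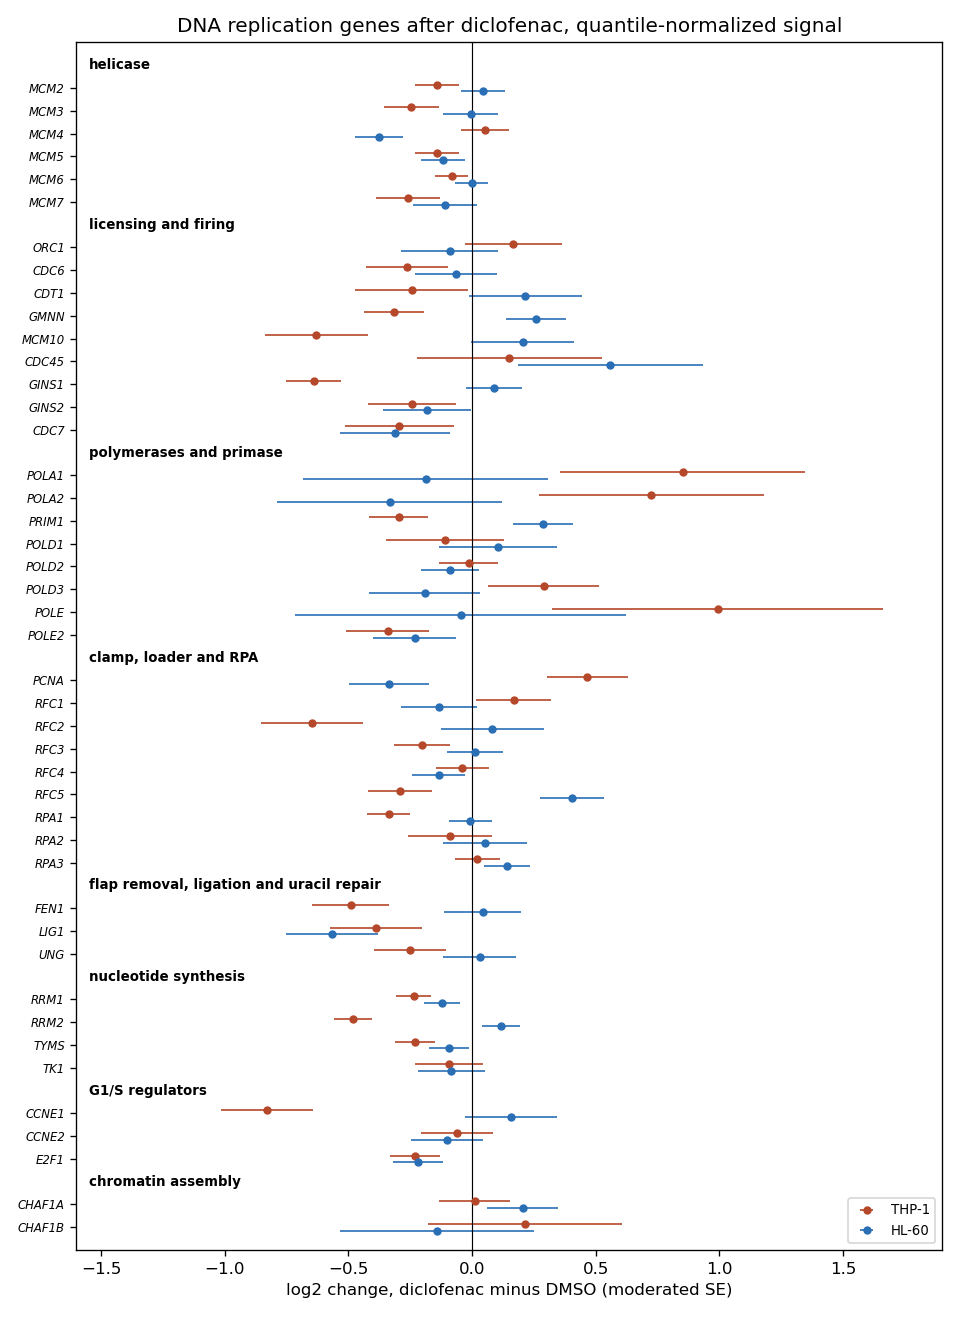
Log2 change (diclofenac minus DMSO, quantile-normalized, x axis) of each of the 44 members in THP-1 and HL-60, grouped by role, with the moderated standard error as a bar. THP-1 points reach from -0.83 (CCNE1) to 0.99 (POLE), HL-60 points from -0.57 (LIG1) to 0.56 (CDC45), and none passed the test.

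More members passed between the lines than between the treatments, and the line comparison under DMSO shares the DMSO arrays with both treatment comparisons. Under DMSO 16 members passed between THP-1 and HL-60 (36.4%), against 18.7% of all genes and 42.6% of the genes of similar brightness, so the share was above that of all genes and below that of genes as bright. In THP-1 8 were higher, led by the helicase gene MCM5, PRIM1 and the helicase activator gene MCM10, and 8 were lower, led by RRM2, GINS1 and PCNA, against 9.31% and 9.4% of all genes. The comparison under diclofenac was added after the data were seen. Its groups do not include the THP-1 DMSO arrays, but its standard errors do, as the spread was estimated over all 8 arrays. Under diclofenac 11 passed (25%), 6 higher and 5 lower in THP-1, against 8.48% and 7.63% of all genes. Over both directions 16.1% of all genes and 38.6% of the genes of similar brightness passed there. MCM5, TK1, PRIM1 and MCM2 were higher and RRM2, GINS1, MCM6 and RRM1 lower under both treatments after quantile normalization, which is 8 of 44 members (18.2%), against 12.2% of all genes. On the deposited scale 13 members passed under DMSO, 7 higher and 6 lower, against 7.64% and 8.63% of all genes, and 10 under diclofenac, against 8.13% higher and 7.61% lower. There CCNE1, MCM2, MCM4, MCM6 and RRM1 no longer passed under DMSO and CDC45 and RPA2 did, and under diclofenac MCM2, MCM6, RFC4 and RRM1 no longer passed and CDC6, MCM10 and POLA1 did. Under both treatments 9 members passed on that scale, MCM5, TK1, PRIM1, CDC6 and MCM10 higher and RRM2, GINS1, RPA2 and POLA1 lower, against 11.5% of all genes. Median centring left 0 higher and 1 lower, POLA1, under DMSO and 0 under diclofenac, though each member that passed after quantile normalization kept its sign. Without the second THP-1 DMSO array 19 passed under DMSO, against 11.4% of all genes higher and 11% lower, and 17 under diclofenac, against 13.7% in each direction, while CCNE1 and RFC1 no longer did under DMSO. Without the first THP-1 DMSO array 24 passed under DMSO and 19 under diclofenac, beside 40.9% and 22.9% of all probe sets. Leaving out the first HL-60 DMSO array gave 9 under DMSO (7.62% of probe sets) and leaving out the second 10 (8.35%). Under diclofenac, leaving out either HL-60 diclofenac array gave 6 (6.28% and 6.19% of probe sets) and either THP-1 diclofenac array 5 (5.67% and 5.83%), where 13% of probe sets passed with all arrays and 15.3% did under DMSO. The median member difference between the lines was 0.09 under DMSO, against 0.03 over all genes, and -0.05 under diclofenac, against -0.00.

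**Figure D3:**
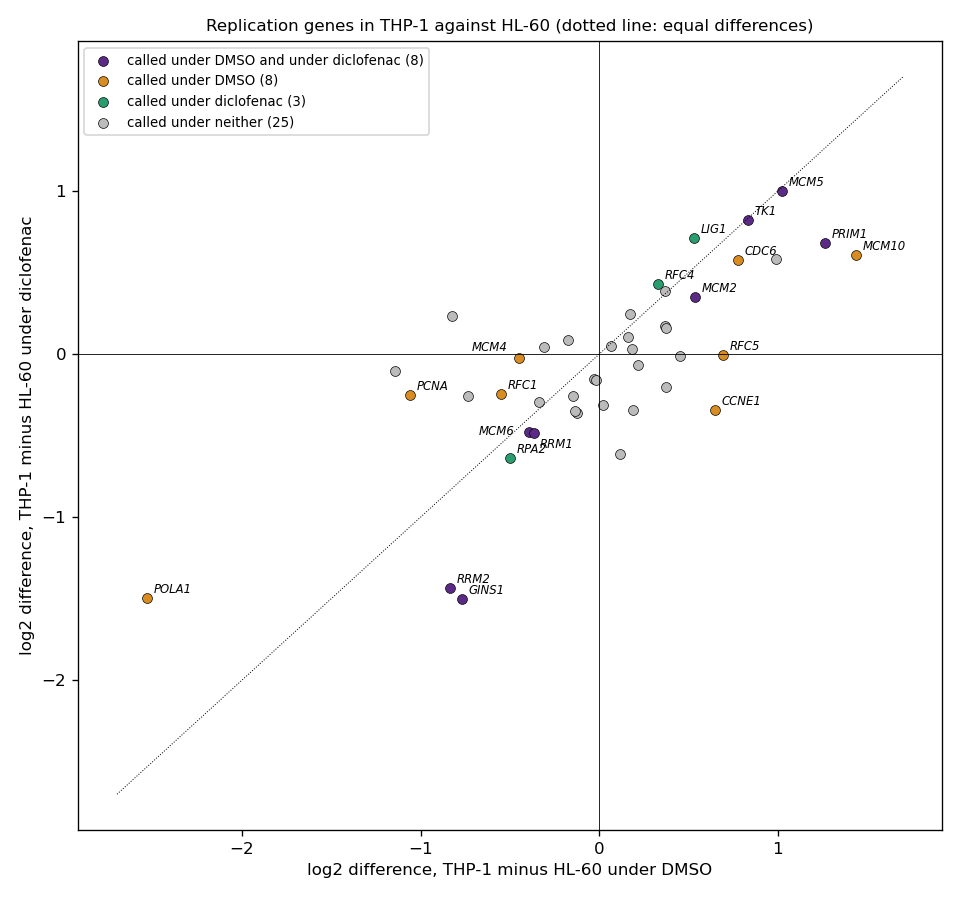
Log2 difference between the lines (THP-1 minus HL-60) under DMSO (x axis) and under diclofenac (y axis) for the 44 members after quantile normalization, coloured by the comparisons in which they passed. The 8 genes that passed in both lie at the upper right (MCM5, TK1, PRIM1, MCM2) and the lower left (RRM2, GINS1, MCM6, RRM1).

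The MCM helicase genes had opposite line differences after quantile normalization and no change with diclofenac that passed. MCM5 had intensities of 3124.4 and 3138.1 in THP-1 cells with diclofenac and 3695.2 and 2629.3 with DMSO, and 1531 and 1500.4 in HL-60 cells with diclofenac and 1573.5 and 1688 with DMSO. Every THP-1 array lay above every HL-60 array, and the difference under DMSO was 1.02 ± 0.09, or 2.03-fold, with a limma adjusted p of 1.40e-04. Its second probe set gave 1.32 ± 0.16. MCM2 measured 3112.9 and 3228.8 in THP-1 with diclofenac and 3716 and 2665.7 with DMSO, against 2494.1 and 2369.6 with diclofenac and 2203.2 and 2459.7 with DMSO in HL-60, and was higher in THP-1 by 0.53 ± 0.09 under DMSO and 0.35 ± 0.09 under diclofenac. Neither passed on the deposited scale, with limma adjusted p-values of 0.136 and 0.223. MCM6 ran the other way. It measured 6455.9 and 6793.5 in THP-1 with diclofenac and 7661.4 and 5179.5 with DMSO, below 9318.2 and 10136.2 with diclofenac and 8691.1 and 9076.9 with DMSO in HL-60, a difference under DMSO of -0.39 ± 0.07 (adjusted p 0.00487 by limma) that did not pass on the deposited scale (adjusted p 0.166).

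MCM4 was the member with the smallest p in HL-60, at 2688.5 and 2832.3 with diclofenac and 3316.8 and 3697.7 with DMSO, and both diclofenac arrays lay below both DMSO arrays. In THP-1 its arrays overlapped, at 2899.4 and 2585 with diclofenac and 2803.9 and 2065.2 with DMSO, and it was lower in THP-1 than in HL-60 under DMSO, at -0.45 ± 0.10, which did not pass on the deposited scale (limma adjusted p 0.0590). MCM4 has 4 probe sets, and the others gave line differences of -0.15 ± 0.14, -0.19 ± 0.17 and 0.05 ± 0.25 under DMSO, of which none passed. They had changes of -0.07 ± 0.14, 0.00 ± 0.17 and -0.26 ± 0.25 in HL-60, smaller than that of the brightest. In THP-1 they had changes of -0.34 ± 0.14, -0.01 ± 0.17 and -0.51 ± 0.25, all below 0, against 0.05 ± 0.10 for the brightest. MCM3 and MCM7, the remaining ring subunits, had changes of -0.25 ± 0.11 and -0.26 ± 0.13 in THP-1 and of -0.01 ± 0.11 and -0.11 ± 0.13 in HL-60. Over the 6 helicase genes the median change in THP-1 was -0.14 with 5 below 0, and 0.36 under median centring.

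Among the genes of licensing and origin firing, MCM10 and CDC6 were higher and GINS1 lower in THP-1 than in HL-60 under DMSO, and none passed with diclofenac. GINS1, a subunit of the complex that travels with the helicase, measured 1571.7 and 1907.5 with diclofenac and 2740.6 and 2235.4 with DMSO in THP-1, and the groups did not overlap. In HL-60 it measured 5055.2 and 4982.4 with diclofenac and 4117.8 and 4924.2 with DMSO. The deposited values there were higher with diclofenac, without overlap but by a narrow gap. After quantile normalization they overlapped, with a change of 0.09 ± 0.11. The THP-1 change was -0.64 ± 0.11, -0.15 under median centring and -0.62 without the second DMSO array. GINS1 was also lower in THP-1 than in HL-60, at -0.77 ± 0.11 under DMSO (limma adjusted p 0.00215) and -1.50 ± 0.11 under diclofenac, where it was 2.83-fold lower (adjusted p 6.73e-05). Its partner GINS2 had changes of -0.24 ± 0.18 in THP-1 and -0.18 ± 0.18 in HL-60.

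MCM10, which helps the loaded helicase to start, had 882.8 and 844.4 with diclofenac and 1115.8 and 1450.4 with DMSO in THP-1, against 565.1 and 513 with diclofenac and 431 and 527.5 with DMSO in HL-60. It was higher in THP-1 under DMSO by 1.44 ± 0.21, with an adjusted p of 0.00204 by limma. Under diclofenac it was higher by 0.61 ± 0.21, which did not pass after quantile normalization but did on the deposited scale (adjusted p 0.0364 by limma). CDC6, a loader of the helicase, had 1175 and 1199.8 with diclofenac and 1228 and 1447 with DMSO in THP-1, against 715.9 and 814.8 with diclofenac and 791.4 and 836.3 with DMSO in HL-60, and its line difference of 0.78 ± 0.16 passed under DMSO. Both genes thus had higher values on every THP-1 array than on any HL-60 array. The second probe set of CDC6 gave a line difference of 0.40 ± 0.18 under DMSO, which did not pass. GMNN, whose product geminin blocks relicensing by holding CDT1, had 3264.7 and 3647.1 with diclofenac and 4779.8 and 3136.7 with DMSO in THP-1, where the deposited values overlapped. In HL-60 it had 4124.9 and 3820.3 with diclofenac and 2816.7 and 3634 with DMSO, and the groups did not overlap. Its changes were -0.32 ± 0.12 and 0.26 ± 0.12, and the THP-1 change was 0.19 under median centring.

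Of the other origin genes, ORC1, the largest subunit gene of the origin recognition complex, had changes of 0.17 ± 0.20 in THP-1 and -0.09 ± 0.20 in HL-60, and the kinase gene CDC7 by -0.29 ± 0.22 and -0.31 ± 0.22. CDT1, the loading partner of CDC6, had changes of -0.24 ± 0.23 and 0.22 ± 0.23. CDC45, the other companion of the helicase, had 1247.7 and 537.9 on the THP-1 DMSO arrays, so far apart that its change of 0.15 ± 0.37 became -0.51 without the second. Over the 9 genes of this role the median change was -0.26 in THP-1 with 7 below 0, against 0.09 in HL-60 with 4 below 0, and 0.15 and 0.32 under median centring.

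Among the polymerase genes PRIM1 and POLA1, which work in the same primer-making complex, differed between the lines in opposite directions. PRIM1, the catalytic subunit of the primase, had 1925.8 and 1946.9 with diclofenac and 2271 and 2115 with DMSO in THP-1, against 1244.7 and 1085.2 with diclofenac and 964.7 and 903.5 with DMSO in HL-60. Within both lines the treatments did not overlap, lower with diclofenac in THP-1 at -0.30 ± 0.12 and higher in HL-60 at 0.29 ± 0.12. The THP-1 change was 0.18 under median centring. Between the lines PRIM1 was higher in THP-1 by 1.27 ± 0.12 under DMSO (2.41-fold, limma adjusted p 2.17e-04) and by 0.68 ± 0.12 under diclofenac. POLA1, the catalytic subunit of polymerase alpha, had 219.9 and 315.3 with diclofenac and 266.3 and 100.9 with DMSO in THP-1, against 874.9 and 895.4 with diclofenac and 941.6 and 1094.8 with DMSO in HL-60. The lower THP-1 DMSO value lay below that array's background of 238.6, and the line difference of -2.53 ± 0.50 under DMSO was -1.67 without that array. Under diclofenac it was -1.49 ± 0.50, which did not pass after quantile normalization (adjusted p 0.0946 by limma). The spread in that standard error also includes the THP-1 DMSO arrays. On the deposited scale the difference under diclofenac was -1.57 and passed (adjusted p 0.00397 by limma).

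The remaining polymerase subunits did not pass in the fit without a block on all arrays and all probe sets. POLD3 passed between the lines under DMSO with the dimmest 40% of probe sets left out and with the replicate number as a block. POLA2 and POLE, the catalytic subunit of polymerase epsilon, had THP-1 changes of 0.72 ± 0.45 and 0.99 ± 0.67 that became -0.11 and -0.27 without the second DMSO array, where both lay below background, and among the alternatives run both passed only with that array as the lone THP-1 DMSO array. The polymerase delta genes POLD1, POLD2 and POLD3 had changes of -0.11 ± 0.24, -0.01 ± 0.12 and 0.29 ± 0.22 in THP-1 and by 0.11 ± 0.24, -0.09 ± 0.12 and -0.19 ± 0.22 in HL-60. POLE2, the accessory subunit of polymerase epsilon, had changes of -0.34 ± 0.17 and -0.23 ± 0.17. Over the 8 genes of this role the median in THP-1 was 0.14 with all arrays and -0.15 without the second DMSO array.

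PCNA, the clamp that holds polymerases on DNA, had a higher value with diclofenac in THP-1, unlike most members. It measured 5383.3 and 5757.8 with diclofenac and 4286.4 and 3032.7 with DMSO in THP-1, without overlap, a change of 0.47 ± 0.16 that did not pass (limma adjusted p 0.393). HL-60 arrays held 5772.6 and 8364.7 with diclofenac and 6806.5 and 9636.5 with DMSO, and these overlapped. PCNA was lower in THP-1 than in HL-60 under DMSO, at -1.06 ± 0.16 or 2.08-fold (adjusted p 0.00282 by limma), while the difference under diclofenac of -0.25 ± 0.16 did not pass.

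Of the clamp loader genes, RFC5 was higher and RFC1 lower in THP-1 than in HL-60 under DMSO. RFC5 had 984.3 and 955.4 with diclofenac and 1124.9 and 1150.1 with DMSO in THP-1, against 952.6 and 984.2 with diclofenac and 695.3 and 745.1 with DMSO in HL-60, with no overlap of the treatments in either line. Its change was -0.29 ± 0.13 in THP-1, 0.13 under median centring, and 0.40 ± 0.13 in HL-60, and its 2 dimmer probe sets gave 0.02 ± 0.24 and 0.17 ± 0.22 in HL-60. Between the lines RFC5 passed under DMSO at 0.69 ± 0.13 and stood at -0.00 ± 0.13 under diclofenac. Its dimmer probe sets gave 0.71 ± 0.24 and 0.19 ± 0.22 under DMSO, and neither passed. RFC1, the large loader subunit, had 786.9 and 768.9 with diclofenac and 750.8 and 651.2 with DMSO in THP-1, against 870.9 and 999.8 with diclofenac and 1029.6 and 1023.8 with DMSO in HL-60. Its line difference of -0.55 ± 0.15 passed under DMSO with an adjusted p of 0.0448 by limma, which became 0.0676 without the second THP-1 DMSO array. The dimmer RFC1 probe sets gave -0.25 ± 0.20 and 0.75 ± 0.38 under DMSO and did not pass. The last of these lay above background on no array. RFC4 had 2662.2 and 2796.4 with diclofenac and 2697.5 and 2333.8 with DMSO in THP-1, against 2025.5 and 1967.6 with diclofenac and 1925 and 2370.1 with DMSO in HL-60, and passed under diclofenac at 0.43 ± 0.11, though not on the deposited scale (limma adjusted p 0.0882). RFC2 and RFC3 did not pass with all arrays and all probe sets, though RFC3 did between the lines under DMSO with the dimmest 40% left out. Their changes in THP-1 were -0.65 ± 0.21 and -0.20 ± 0.11. The second probe set of RFC2 had the opposite sign there, at 0.34 ± 0.27. Without the second THP-1 DMSO array RFC2 passed as lower in THP-1 than in HL-60 under diclofenac, at -0.63 (adjusted p 0.0233 by limma). Its second probe set stood at 0.04 there and did not pass.

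RPA1, the large subunit of the single-strand binding protein, had 2049 and 2059.2 with diclofenac and 2669.5 and 2126.6 with DMSO in THP-1, against 2637.3 and 2428.2 with diclofenac and 2428.7 and 2564.3 with DMSO in HL-60. The THP-1 treatments did not overlap, both probe sets gave lower values (-0.34 ± 0.09 and -0.38 ± 0.12), and median centring turned the first to 0.14. RPA2 had 1389.7 and 1487.3 with diclofenac and 1239.2 and 1582.1 with DMSO in THP-1, below 2332.8 and 2182.5 with diclofenac and 2183.5 and 2099.6 with DMSO in HL-60, and was lower in THP-1 under diclofenac, at -0.64 ± 0.17 (limma adjusted p 0.0401). RPA3, the small subunit, differed by -0.03 ± 0.09 under DMSO and -0.15 ± 0.09 under diclofenac.

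FEN1 and LIG1, which trim and seal the fragments of the lagging strand, had lower values with diclofenac in THP-1 that did not pass. FEN1 measured 2149 and 2257.2 with diclofenac and 3372 and 2342.6 with DMSO in THP-1, and 3262.8 and 2377.1 with diclofenac and 2298.6 and 3092.5 with DMSO in HL-60, where the arrays overlapped. In THP-1 the arrays did not overlap, its 2 probe sets gave -0.49 ± 0.16 and -0.49 ± 0.18, and median centring put the first at 0.01. LIG1 measured 496.6 and 581.4 with diclofenac and 772.7 and 710.8 with DMSO in THP-1, and 283.9 and 322.2 with diclofenac and 480.3 and 524.6 with DMSO in HL-60. Deposited values with diclofenac lay below those with DMSO in both lines, with changes of -0.39 ± 0.19 and -0.57 ± 0.19 that were -0.08 and -0.49 under median centring. Its difference between the lines was 0.53 ± 0.19 under DMSO and passed under diclofenac at 0.71 ± 0.19. UNG, which removes uracil from DNA, had changes of -0.25 ± 0.15 in THP-1 and 0.03 ± 0.15 in HL-60.

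The genes of nucleotide synthesis were below 0 in THP-1 for 4 of 4 members, with a median of -0.23, which turned to 0.28 under median centring. RRM2 measured 3776.6 and 4178 with diclofenac and 5649.7 and 4201.7 with DMSO in THP-1, and 10599.6 and 11493.8 with diclofenac and 9261.8 and 9485.9 with DMSO in HL-60. Diclofenac arrays lay below DMSO arrays in THP-1, by a narrow gap to the second DMSO array on the deposited scale, and above them in HL-60. The THP-1 change was -0.48 ± 0.08. It was 0.06 under median centring and -0.29 on the deposited scale. Its second probe set gave -0.50 ± 0.11 in THP-1. Between the lines RRM2 was 1.78-fold lower in THP-1 under DMSO and 2.70-fold lower under diclofenac, at -0.84 ± 0.08 and -1.43 ± 0.08, with adjusted p-values of 1.77e-04 and 1.28e-05 by limma.

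RRM1, the large subunit of the same enzyme, had 4056.9 and 3995.8 with diclofenac and 5026.2 and 3604.8 with DMSO in THP-1, below 5733 and 5846.6 with diclofenac and 5766.6 and 6224.7 with DMSO in HL-60 on every array. Its THP-1 change was -0.24 ± 0.07, and -0.08 on the deposited scale. Its line difference was -0.37 ± 0.07 under DMSO and -0.48 ± 0.07 under diclofenac. Both passed after quantile normalization but not on the deposited scale (limma adjusted p 0.108 and 0.0909). The second probe set of RRM1 gave line differences of -0.21 ± 0.21 and -0.41 ± 0.21, which did not pass. The thymidine kinase gene TK1 ran the other way between the lines, at 1001.3 and 1004.3 with diclofenac and 1035.9 and 1024.1 with DMSO in THP-1, against 523.1 and 537.9 with diclofenac and 610.2 and 546.4 with DMSO in HL-60. It was higher in THP-1 by 0.83 ± 0.14 under DMSO and 0.82 ± 0.14 under diclofenac, with adjusted p-values of 0.00417 and 0.00486 by limma. TYMS, which makes thymidylate, had changes of -0.23 ± 0.08 in THP-1 and -0.09 ± 0.08 in HL-60 and did not pass between the lines.

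**Figure D4:**
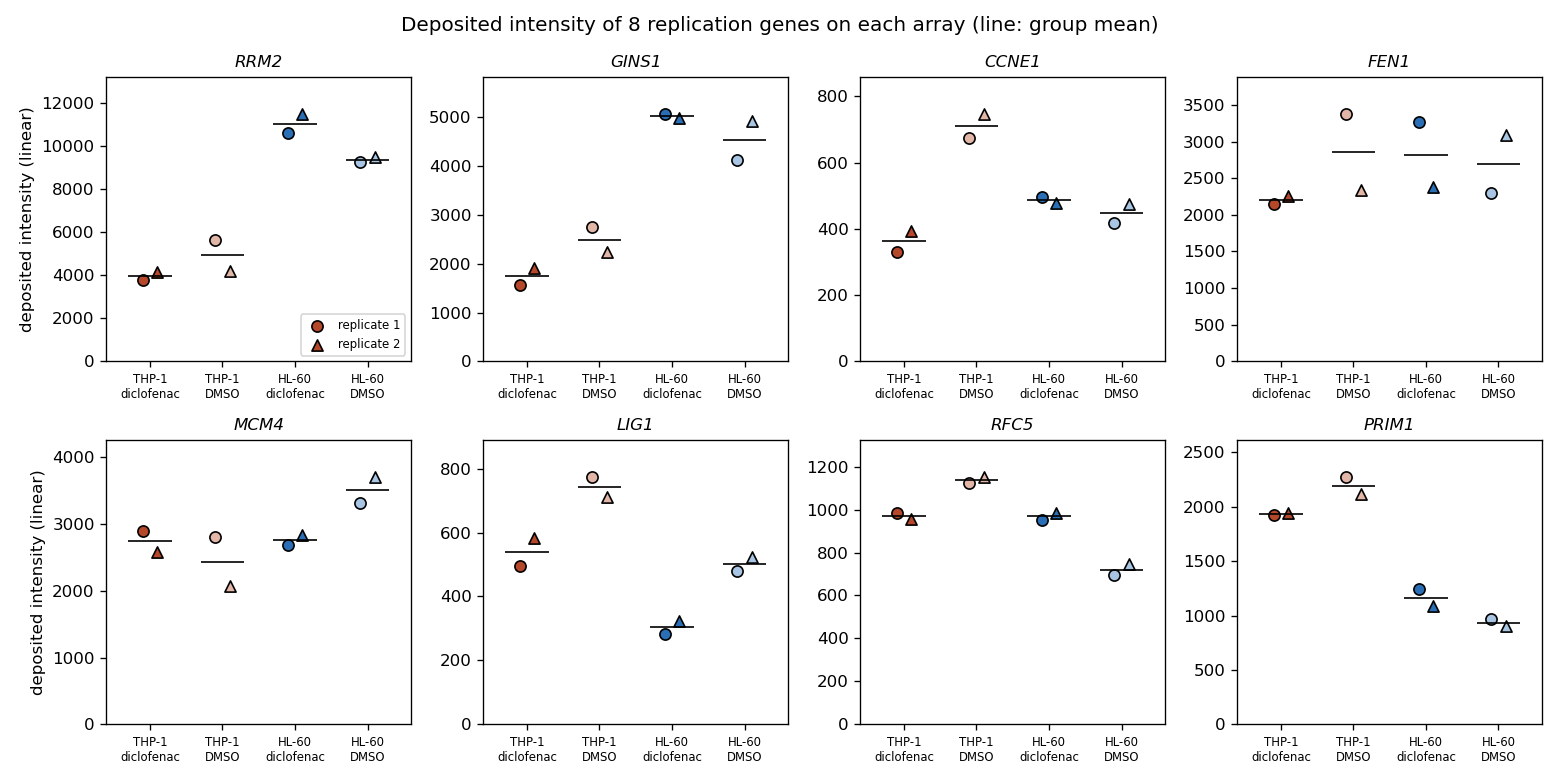
Deposited intensity (linear, y axis) of 8 members on each of the 8 arrays, with circles for replicate 1, triangles for replicate 2 and a line at the group mean. GINS1 and CCNE1 lie lower on both THP-1 diclofenac arrays than on both THP-1 DMSO arrays, and LIG1 lies lower with diclofenac in both lines.

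CCNE1, the cyclin E gene that drives cells into S phase, had the lowest change of all members in THP-1. It measured 330.9 and 395.1 with diclofenac and 673.2 and 746.1 with DMSO in THP-1, and 495.8 and 477 with diclofenac and 417.1 and 476.5 with DMSO in HL-60. The THP-1 treatments were well separated, and the change of -0.83 ± 0.19 was -0.88 on the deposited scale, -0.53 under median centring and -0.81 without the second DMSO array. In HL-60 it was 0.16 ± 0.19. CCNE1 was higher in THP-1 than in HL-60 under DMSO by 0.65 ± 0.19, at the edge of the threshold and not past it on the deposited scale (limma adjusted p 0.0519), and stood at -0.34 ± 0.19 under diclofenac. The related CCNE2 had changes of -0.06 ± 0.15 in THP-1 and -0.10 ± 0.15 in HL-60, and its second probe set gave -0.35 ± 0.22 in THP-1.

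E2F1, a transcription factor of S phase genes, had 4185.5 and 4665.4 with diclofenac and 5252.5 and 4055.4 with DMSO in THP-1, and 3924.9 and 4636.8 with diclofenac and 5042.2 and 4531.5 with DMSO in HL-60. Deposited values overlapped in both lines, and the changes were -0.23 ± 0.10 and -0.22 ± 0.10. Its dimmer probe set had 263.7 and 152 with diclofenac and 253.5 and 198.4 with DMSO in THP-1, and 277 and 323.1 with diclofenac and 397.9 and 92.3 with DMSO in HL-60. It gave changes of the opposite sign, 0.26 ± 0.54 and 0.49 ± 0.54. CHAF1A and CHAF1B, subunits of the assembly factor that places histones on new DNA, had changes of 0.01 ± 0.14 and 0.21 ± 0.39 in THP-1 and did not pass in the fit of all arrays, while CHAF1B passed without the first THP-1 DMSO array, which leaves the one where it lay below background. Among the 16 members with several probe sets, these differed in sign for 7 in THP-1 and 9 in HL-60.

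Among other genes of the same processes none passed with diclofenac. Of 39 further replication genes measured, 0 passed with diclofenac in either line. At an unadjusted limma p under 0.05 there were 5 lower and 1 higher in THP-1, against 5.62% and 6.26% of all genes. In HL-60 there was 1 lower, against 2.13%. Their median in THP-1 was -0.16 with 27 below 0, or 0.32 under median centring, and the smallest p there belonged to the histone chaperone gene ASF1B at -0.54 ± 0.12. Of 24 genes of G1/S control 0 passed in either line, with 3 lower and 1 higher at an unadjusted limma p in THP-1. In HL-60 there were 2 lower and 1 higher, against 2.13% and 2.44% of all genes. In HL-60 the retinoblastoma-related gene RBL2 stood at 0.58 ± 0.13 and the kinase gene CDK2 at -0.38 ± 0.13. Their median was -0.10 in THP-1 and -0.00 in HL-60.

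Between the lines under DMSO 5 of the 39 further replication genes were higher in THP-1 and 5 lower. Of the 24 G1/S genes 4 were higher and 2 lower. Of all genes 9.31% passed as higher and 9.4% as lower, and 42.6% of the genes as bright as the members passed in either direction. TIMELESS, whose product protects replication forks, was higher by 1.71 ± 0.17, while the gene of its partner TIPIN was lower, at -1.23 ± 0.16. SAMHD1, an enzyme that breaks down the nucleotides that ribonucleotide reductase supplies, was higher by 2.60 ± 0.38, and DUT, which clears dUTP, was lower, at -0.68 ± 0.08. TOPBP1, NASP and ASF1A were higher, and the PCNA partner gene PCLAF, RBBP4 and ORC5 were lower. Of the G1/S genes SKP2 at 0.83 ± 0.10, CDC25A, E2F3 and the CDK inhibitor gene CDKN1A were higher, and the cyclin D gene CCND2 at -1.99 ± 0.53 and E2F8 were lower. ORC5 and CDKN1A did not pass without the second THP-1 DMSO array, with adjusted p-values of 0.0718 and 0.0562 by limma. On the deposited scale 5 further replication genes passed as higher and 3 as lower, and 3 and 1 of the G1/S genes, against 7.64% and 8.63% of all genes.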

How the data were processed

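RNA of 8 cell samples was hybridised to 1-colour Affymetrix arrays, 1 array a sample. The values are linear intensity per probe set as deposited by the authors, who had scaled each array: the trimmed means were 500.1 to 500.2, judged from the values, and the software is not given in the sources used here. Of 22277 probe sets 62 controls were left out of the tests. The platform annotation gave 1 symbol for 19064 of the others, several for 1043, which were not named, and listed none for 2108.

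An offset of 50 was added, log2 taken and quantile normalization applied, and limma 3.58.1 in R 4.3.3 fitted group means on all 8 arrays (eBayes with an intensity trend, 4 residual and 4.41 prior degrees of freedom), with Benjamini-Hochberg adjustment over 22215 probe sets. The pipeline was tested on simulated data. The members and lists were chosen with earlier results of these data known. Every member may be named, with array values for those that passed and for the smallest p-values, and of other lists the genes that passed or up to 3 a direction with the smallest p. Lists comprised further replication genes, G1/S control, mitosis and cell type markers. The alternatives were other scalings, offsets of 16 and 1, a filter on dim probe sets, no trend, a replicate block, single-line fits, other probe set rules and leaving out each array. Figures used Python 3.11.15 and matplotlib 3.10.9. The number of arrays limits the precision.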

Additional observations from a re-analysis of the deposited data

Results flagged for a closer look

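For 7 members both diclofenac arrays lay on one side of both DMSO arrays in THP-1 and on the opposite side in HL-60 after quantile normalization, which is 15.9% of them against 8.08% of all genes. On the deposited scale MCM10 overlapped in HL-60 and GMNN in THP-1, and 6 members (13.6%) were left, GINS1 among them, against 5.73% of all genes. These counts rest on the brightest probe set of each gene, and the other probe sets of RRM2, RFC5 and RFC1 did not have the pattern. That of RRM2 overlapped in HL-60 (0.01 ± 0.11). For RFC5, that at 0.02 ± 0.24 in HL-60 overlapped there, and that at 0.17 ± 0.22 was higher with diclofenac in both lines. Those of RFC1 overlapped in both lines. The difference between the changes (THP-1 minus HL-60) was -0.99 for CCNE1, with -0.83 ± 0.19 in THP-1 and 0.16 ± 0.19 in HL-60. It was -0.83 for MCM10 (-0.63 ± 0.21 and 0.20 ± 0.21), -0.70 for RFC5 (-0.29 ± 0.13 and 0.40 ± 0.13) and -0.60 for RRM2 (-0.48 ± 0.08 and 0.12 ± 0.08). It was -0.58 for PRIM1 (-0.30 ± 0.12 and 0.29 ± 0.12), -0.57 for GMNN (-0.32 ± 0.12 and 0.26 ± 0.12) and 0.30 for RFC1 (0.17 ± 0.15 and -0.13 ± 0.15). None of these differences passed in the limma test of the difference, where adjusted p-values ran from 0.303 for RRM2 to 0.780 for RFC1. Without the second THP-1 DMSO array the differences were -0.98 for CCNE1, -0.57 for MCM10, -0.63 for RFC5, -0.60 for RRM2, -0.48 for PRIM1, -0.68 for GMNN and 0.16 for RFC1.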

How the results depend on the processing

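With 2 arrays a group, 4 residual degrees of freedom and 1 array with high background, small changes could not be told from array spread. Median centring turned the THP-1 changes of FEN1, RPA1, RRM1 and RRM2 to 0.0082, 0.14, 0.27 and 0.062. It adds the same amount to the deposited-scale change of every gene in a comparison, so such turns are a common shift, not separate results per gene. The causes of the changes were not tested. On the deposited scale the members' median was -0.078 for diclofenac in THP-1, -0.015 in HL-60, -0.044 for the difference of the changes and 0.019 between the lines under DMSO, and 51, 2 and 2 probe sets passed in THP-1, in HL-60 and for the difference. Median centring gave medians of 0.28, 0.15, 0.15, -0.22 and, between the lines under diclofenac, -0.10. It left 0 probe sets passing with diclofenac in THP-1, in HL-60 and for the difference, 1147 and 1028 between the lines under DMSO and diclofenac, 428 higher and 719 lower under DMSO against 1687 and 1715 after quantile normalization, and 1 and 0 members. Leaving out the dimmest 40% of probe sets gave 53 probe sets and 1 member in THP-1 and 3 probe sets in HL-60. Without the intensity trend 0 probe sets passed for each diclofenac comparison. Between the lines 9 members then passed under DMSO and 5 under diclofenac, beside 11.8% and 9.66% of all probe sets. Fitting each line alone gave 0 probe sets in THP-1 and 3 in HL-60, and no values across the lines. Averaging the probe sets of each gene gave line medians of 0.011 under DMSO and -0.13 under diclofenac, and avoiding probe sets of the _x_at type gave 0.043 and -0.086.

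Leaving out the second THP-1 DMSO array was an alternative chosen after seeing the data where joined with a scaling. Without that array the deposited scale gave medians of -0.015 in HL-60, -0.18 for the difference and 0.17 between the lines under DMSO. Median centring then gave -0.31 in THP-1, 0.15 in HL-60, -0.42 for the difference, 0.37 between the lines under DMSO and -0.10 under diclofenac. Leaving out each array in turn moved the members' median between -0.22 and -0.12 in THP-1, -0.058 and -0.0012 in HL-60, -0.16 and -0.084 for the difference, 0.015 and 0.15 between the lines under DMSO and -0.11 and -0.024 under diclofenac. The members passing ranged from 0 to 17 in THP-1, 0 to 0 in HL-60, 0 to 12 for the difference, 9 to 24 between the lines under DMSO and 5 to 19 under diclofenac. The probe sets passing ranged from 0 to 6898 in THP-1, 0 to 11 in HL-60, 0 to 4036 for the difference, 1693 to 9093 between the lines under DMSO and 1260 to 5098 under diclofenac, each highest without the first THP-1 DMSO array. Same-numbered arrays deviated together at correlations of -0.01 in THP-1 and -0.00 in HL-60, so the numbers were not taken to pair them. With the replicate number as a block 15 probe sets passed in THP-1 and 0 for the difference. Between the lines 15 members then passed under DMSO and 9 under diclofenac, beside 13.8% and 11.6% of all probe sets. Of the other values, 172 summary values kept within their limits, and of the values of single genes 567 kept direction and side of the threshold, 106 no longer passed, 10 newly passed and the 4 given at the start reversed.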

Other observations

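The 30 mitosis genes, which act after S phase, had 0 passing with diclofenac in either line by limma. At an unadjusted limma p under 0.05 there were 5 lower in THP-1 and 0 in HL-60, against 5.62% and 2.13% of all genes. Their median change was -0.19 in THP-1 with 24 below 0, which was 0.27 under median centring, and -0.04 in HL-60. Between the lines under DMSO 5 were higher and 6 lower in THP-1, against 9.31% and 9.4% of all genes. On the deposited scale 3 and 5 were, against 7.64% and 8.63%. Of the genes as bright as the replication genes 42.6% passed in either direction under DMSO after quantile normalization. UBE2C, a ubiquitin-conjugating enzyme of mitotic exit, was higher by 2.91 ± 0.13 under DMSO and by 2.58 ± 0.13 under diclofenac, and the survivin gene BIRC5 by 1.39 ± 0.15 and 1.07 ± 0.15. The mitotic kinesin gene KIF23 was lower, at -1.74 ± 0.16 and -1.13 ± 0.16, as was the spindle factor gene TPX2, at -1.28 ± 0.12 and -1.41 ± 0.12. MKI67, a gene used as a proliferation marker, stood at -1.01 ± 0.17 under DMSO and -0.99 ± 0.17 under diclofenac. Under diclofenac 3 mitosis genes were higher in THP-1 and 10 lower, against 8.48% and 7.63% of all genes. On the deposited scale 3 and 7 were, against 8.13% and 7.61%.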
